A study of Mus musculus with 12 samples.

Results

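Genes were followed across the whole transcriptome of CD4 thymocytes from which Satb1 had been removed (knockout, KO), against CD4 thymocytes of wild type (WT). All genes of the CD4 count table that passed a low-count filter were taken, which gave 17316 of 49997 genes. The libraries were made from poly(A) RNA of sorted mouse thymus cells, 3 libraries from Satb1 KO and 3 from WT, out of 12 libraries in the series. The other 6 are DP thymocytes, 3 KO and 3 WT, which were used only where the effect of the KO was compared between the cell types. Every group, WT included, is labelled as treated with tamoxifen, a drug used to switch on an inducible Cre recombinase. The labels give each library a batch number that equals its replicate number. Strain, age, sex, the alleles that make the knockout inducible, the exons removed, the time after tamoxifen and the sort gates are not stated in the labels. Nothing in the labels ties the 3 libraries of a group to different animals, so the spread behind each p-value is that between libraries and may be technical.

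SATB1 is a nuclear protein that binds AT-rich DNA and helps to fold the genome of T cells, so that genes and their distant control elements meet. T cell precursors pass through the thymus as CD4-CD8- (double-negative, DN) cells that divide, then as CD4+CD8+ (double-positive, DP) cells that are mostly at rest and rearrange the T cell receptor alpha chain. Cells with a useful receptor are kept and become CD4 or CD8 single-positive cells, which stop dividing, switch off the recombinase and prepare to leave. SATB1 is known for its high level in thymocytes and for its part in these steps.

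Satb1, at chr17:51736187-51833290 on the minus strand of mm10, was counted at 3532, 3314 and 3023 CPM in WT and 1493, 1555 and 1479 CPM in KO, in the order of replicates 1 to 3. The change was -1.12 ± 0.08 on the log2 scale (SE; adjusted p = 4.02e-06). CPM, the count scaled to library size after TMM normalization, is the scale of every level given. Here and below, ± after a log2 fold change is its SE. All 3 KO libraries lay below all 3 WT libraries, and the 2 groups lay apart in 51.9% of all tested genes. The count over the whole gene takes in exons that were left in place, so it checks the direction of the labels and not how much of the gene was lost. The 6 CD4 libraries held 30915820 to 62422640 counts. The first principal component took 91.8% of the variance and set KO apart from WT, and the second, with 4.23%, set replicate 3 of both groups apart from the others. Libraries of 1 group differed by more than sampling noise (chi-square per degree of freedom 13.8 to 36.3).

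Cd4 stood at 1177, 1171 and 1003 CPM in WT and 681, 605 and 698 CPM in KO. Cd8a, whose product a CD4 thymocyte has lost, was at 153, 131 and 62.9 CPM in WT and 169, 154 and 162 CPM in KO and did not pass the test (adjusted p = 0.328). Cd8b1, the other CD8 chain, stood at 121, 109 and 82.6 CPM in WT and 254, 233 and 328 CPM in KO and was higher in KO (log2 fold change 1.38 ± 0.17, adjusted p = 0.000517). Over all tested genes 20.9% were higher in KO and 18.8% lower. Of markers of other cells, the 8 B cell markers summed to 9.25 to 22.7 CPM in WT and 25.4 to 35.7 CPM in KO. Of them 2 were higher in KO, Cd79b, which went from 3.54 ± 1.6 to 17.5 ± 0.35 CPM (mean ± SD, n = 3, as for all pairs of levels below), and Cd22 (2.0 ± 0.821 to 3.64 ± 0.428 CPM), whose call was lost with any 1 library but WT replicate 1 left out and in 1 model over all 12 libraries (adjusted p up to 0.105). The 12 myeloid and dendritic cell markers summed to 83.7 to 133 CPM in WT and 121 to 153 CPM in KO, and 2 were higher, Cst3 (37.2 ± 2.55 to 51.3 ± 2.76 CPM) and Irf8 (30.1 ± 7.92 to 45.7 ± 3.05 CPM), the latter not without WT replicate 2, KO replicate 2 or KO replicate 3 (adjusted p up to 0.0723). The 8 erythroid markers summed to 23.6 to 139 and 49.7 to 222 CPM, with Car1 at 0. With the replicate number as a block 4 of the 5 erythroid markers tested were higher in KO, against none without it (edgeR; 0 at an unadjusted p under 0.05). The 10 stromal and epithelial markers, of which 6 were tested, summed to 197 to 217 CPM in WT and 182 to 205 CPM in KO. Among them Pdgfrb was called higher (1.184 ± 0.207 to 13 ± 2.95 CPM), while Foxn1 was at 0 in WT and 0.0155 CPM in KO. Of 13 genes of the DP stage 9 were higher in KO and 3 lower, and they summed to 1284 to 1654 CPM in WT and 2788 to 3351 CPM in KO. Of 18 maturation genes of medullary thymocytes 3 were higher (2 to 5 with a library left out) and 8 lower. They summed to 5001 to 5767 CPM in WT and 3606 to 4021 CPM in KO. The 19 DN and early progenitor genes, of which 16 were tested, 8 higher and 2 lower, summed to 513 to 546 and 804 to 1038 CPM. The 19 genes of CD8 and cytotoxic cells had 4 higher and 6 lower members and summed to 521 to 612 CPM in WT and 755 to 901 CPM in KO. Of the 24 genes of innate-like T cells 23 were tested, 10 were higher and 4 lower (6 higher without WT replicate 3), and they summed to 876 to 959.6 CPM in WT and 1433 to 1803 CPM in KO. Zbtb16, the factor PLZF that marks many of these cells, went from 24.4 ± 11.7 to 1.68 ± 0.927 CPM. Of 16 regulatory T cell genes 6 were higher and 8 lower, with sums of 853 to 955 CPM in WT and 1219.7 to 1386 CPM in KO. Their defining factor Foxp3 stood at 25, 30.3 and 30.3 CPM in WT and 26, 26.2 and 44.4 CPM in KO and did not pass (adjusted p = 0.57). Zbtb16 and Foxp3 were named after their values were seen. Of 10 CD4 lineage genes, Satb1 among them, 2 were higher and 6 lower, and they summed to 8983 to 10246 CPM in WT and 6588 to 6930.2 CPM in KO. Satb1, the gene removed, is 1 of the lower members, and its own fall, given above, is part of the fall in this sum. In bulk RNA a change in the share of cells at another stage and a change within each cell cannot be told apart, and the part of such a shift in the results that follow was not tested.

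A large share of the transcriptome of CD4 cells differed between KO and WT, in both directions. With edgeR's quasi-likelihood test and a Benjamini-Hochberg adjusted p under 0.05, 3620 genes were higher in KO, 20.9% of those tested, and 3248 were lower, 18.8%. These shares are the background against which each gene group below is read. Among protein-coding genes alone they were 23.9% and 21.8%, and they differed with the level of expression, as given in the next paragraph. A change of at least 2-fold was seen in 1424 of the higher and 968 of the lower genes, so most changes were smaller. The median log2 fold change over all tested genes was 0.00225.

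Strongly expressed genes were lower in KO more often than higher. Of the 756 genes with an average log2 CPM above 8, 38.1% were lower in KO and 18.5% higher, while of the 4453 genes between 4 and 6 the shares were 20.5% lower and 27.2% higher. Below an average log2 CPM of 0 few genes were called in either direction, 8.74% higher and 7.1% lower. Protein-coding genes were called more often (3143 higher and 2867 lower of 13127) than long noncoding RNA genes (229 and 251 of 2044), and of 177 small nucleolar RNA genes 1 was higher and 4 lower.

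**Figure D1:**
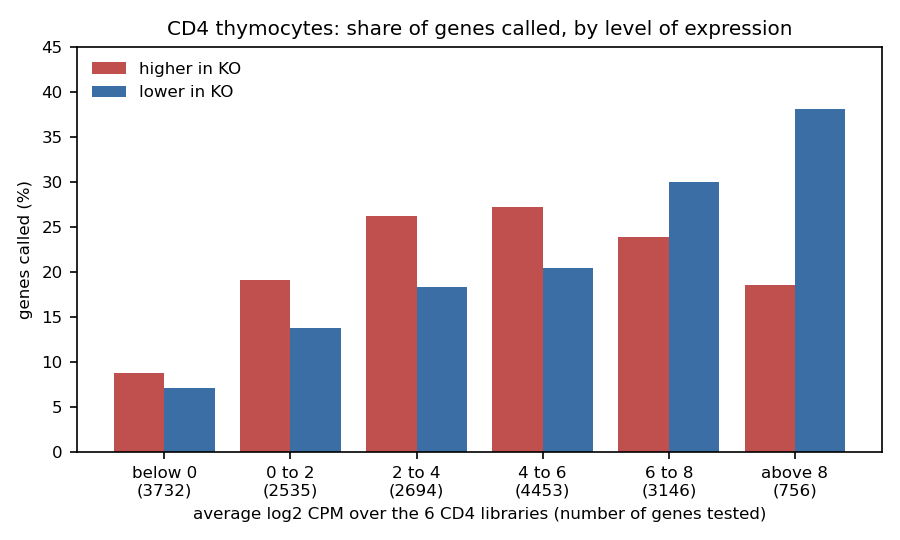
Share of tested genes called higher (red) or lower (blue) in CD4 KO against WT, in 6 bins of average log2 CPM over the 6 libraries; the number of genes in each bin stands under it. Higher calls outnumber lower ones up to an average log2 CPM of 6, and the order turns above it.

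The 12 largest falls in mean CPM held Satb1 and the beta chain locus Tcrb. Of the others, Arhgef1, a guanine nucleotide exchange factor of lymphocytes, fell from 2660.4 ± 93.3 to 1362 ± 157 CPM. Tmsb10, an actin-binding peptide, fell from 1767 ± 216 to 855 ± 155 CPM, and the nonmuscle myosin heavy chain Myh9 from 2261 ± 196 to 1503 ± 150.8 CPM. Itm2a, a membrane protein induced during positive selection, fell from 1002 ± 25.1 to 164 ± 19.5 CPM. The phosphatase CD45, encoded by Ptprc, fell from 2582 ± 56.8 to 1883 ± 19.1 CPM and the transcription factor Ets1 from 2534 ± 165 to 1668 ± 52.2 CPM. The 12 largest rises included the nuclear protein Ptma (1920.3 ± 83.9 to 2963 ± 58.4 CPM), the condensin subunit Smc4 (632 ± 9.69 to 1603 ± 117 CPM) and the proliferation marker Mki67 (260.2 ± 29.2 to 779 ± 99.6 CPM). Ifngr1, the ligand-binding chain of the interferon gamma receptor, rose from 107 ± 6.7 to 904 ± 142 CPM. The surface proteins Thy1 and Ly6e rose from 574 ± 38.7 to 1218 ± 46.8 CPM and from 613 ± 37 to 1192 ± 79.2 CPM. The recombination factor Rag1 rose from 201 ± 53.4 to 748 ± 88.3 CPM, and Dntt, which adds bases at receptor joints, from 147 ± 11.9 to 609 ± 73.6 CPM. In each of these genes all KO libraries lay on 1 side of all WT libraries, as they did in 8988 of all 17316 tested genes (51.9%). The insulin-like growth factor binding protein Igfbp4 had 1 of the 12 largest falls on the log2 scale among well-expressed genes, from 363 ± 52.1 to 20.6 ± 8.77 CPM.

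Genes of DNA replication and mitosis rose almost without exception. Of 38 replication genes tested, 36 were higher in KO and 0 lower, and the median log2 fold change was 0.86. Of 43 mitosis genes, 41 were higher and 0 lower, with a median of 1.52. Lig1, the ligase that joins newly made DNA fragments, was at 67.4, 58.1 and 73 CPM in WT and 193, 182 and 187 CPM in KO (log2 fold change 1.5 ± 0.08, adjusted p = 1.16e-06). Cdc6, which loads the replicative helicase, went from 22.3 ± 3.68 to 63.4 ± 1.77 CPM, and Pole and Pola1, catalytic subunits of replicative polymerases, rose by 1.25 and 1.34 on the log2 scale. Cdc25b, the phosphatase that starts mitosis by activating CDK1, was at 49.1, 47.4 and 45.2 CPM in WT and 165, 145 and 169 CPM in KO (log2 fold change 1.75 ± 0.08, adjusted p = 3.49e-07). Every KO library held at least 2 times the mean WT level of Lig1 and of Cdc25b. Incenp, a scaffold of the Aurora B complex, rose by 1.32. The members that did not pass were Timeless (0.09) and Rpa1 (0.12) of the replication list, and Pttg1 (-0.14) and Kif23 (0.09) of the mitosis list. Where a gene group here or below had no member lower, or none higher, by edgeR's test, none was called in that direction by the DESeq2 Wald test or limma-voom. None had an unadjusted p under 0.05 in that direction, apart from 1 gene of the citrate cycle, 1 of the respiratory chain and 1 of MHC class I.

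Promoters of mitotic genes are known to carry a short element, the cell cycle genes homology region (CHR), which is bound by the complexes that hold these genes silent in resting cells, and often a CCAAT box, bound by NF-Y. Both were searched on both strands, as TTTGAA and CCAAT, in RefSeq promoters of GRCm38.p6 that run from 250 bases before to 50 after the start of transcription. Of the 35 mitosis genes with such a promoter, 25 held the CHR letters (71.4%), 26 a CCAAT (74.3%) and 21 both (60%). Over the 12119 tested genes with a promoter the shares were 15.5%, 42.6% and 6.41%. The letters of the 2 motifs overlapped in 1 mitosis gene and in 16 genes in all. A match is a description of these letters and does not show that a factor binds there. The promoters of Espl1 and Aurka are printed, because they are the mitosis genes with the smallest adjusted p whose promoter holds the CHR letters. Espl1 encodes separase, the protease that lets sister chromatids part, and stood at 32.9, 27.5 and 32.2 CPM in WT and 91.3, 83.1 and 91.2 CPM in KO (log2 fold change 1.52 ± 0.08, adjusted p = 1.08e-06). Aurka, the kinase that matures the spindle poles, stood at 17.8, 15.1 and 18.1 CPM in WT and 58.3, 48.5 and 59.1 CPM in KO (log2 fold change 1.70 ± 0.11, adjusted p = 2.2e-06). Capitals mark the CHR (TTTGAA) and the CCAAT box (CCAAT, or ATTGG on the other strand).
Espl1, chr15:102296173-102296292, plus strand, the 120 bases before the start, with the CHR 27 bases before it: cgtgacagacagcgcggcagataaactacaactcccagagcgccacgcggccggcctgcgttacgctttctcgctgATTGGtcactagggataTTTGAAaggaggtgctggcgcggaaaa
Aurka, chr2:172370571-172370690, minus strand, the 120 bases before the start, with CCAAT boxes 51 and 19 bases before it: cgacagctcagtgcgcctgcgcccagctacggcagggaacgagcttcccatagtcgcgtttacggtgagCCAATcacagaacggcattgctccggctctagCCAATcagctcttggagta
Aurka, chr2:172370521-172370550, minus strand, 30 bases around the CHR, whose first base is base 33 after the start: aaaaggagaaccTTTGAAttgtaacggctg

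Of 21 centromere proteins 19 were higher and 1 lower. Among the higher were Cenpi (1.55) and Cenpf (1.29), log2 fold changes here and in the rest of the paragraph. Of 22 genes of homologous recombination and the Fanconi pathway 17 were higher, among them Rad54l, a DNA translocase (1.45). Of 27 cohesin, condensin and architectural genes 21 were higher and 2 lower, with Ncaph, a condensin subunit, going from 33.8 ± 3.79 to 97.3 ± 9.78 CPM. Of 30 kinesin motors 19 were higher, among them 4 that serve the spindle or cell division, Kif22 (1.51), Kif2c (1.63), Kif14 (1.34) and Kif20a (1.32). The 3 lower ones, named after their values were seen, were the transport motors Kif21b (-0.24), Kif3b (-0.60) and Kif5b (-0.30). Over all 30 kinesins the values ran from -1.21 to 8.67, wider than among those named. Kif21b did not pass without WT replicate 1, WT replicate 2 or KO replicate 1 (adjusted p up to 0.0531), nor Kif5b without KO replicate 2 (adjusted p = 0.052). Of 70 histone genes 31 were higher and 1 lower. The variants H2ax (68.4 ± 9.36 to 189 ± 22.1 CPM) and H2az1 (243.7 ± 46.5 to 531 ± 48.1 CPM), whose messages carry a poly(A) tail, were among them. Most core histone messages lack the tail and are caught poorly by poly(A) selection.

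Of 13 E2F and RB family genes 7 were higher and none lower. The repressors E2f8 and E2f7 went from 27.6 ± 4.67 to 84.2 ± 7.03 CPM and from 7.42 ± 1.34 to 20.3 ± 2.99 CPM, and the partner proteins Tfdp1 and Tfdp2 rose by 0.82 and 0.77 on the log2 scale. The retinoblastoma gene Rb1 did not pass (0.15), though without KO replicate 2 it did (0.24). Cdk6, the G1 kinase of early thymocytes, was at 79.7, 77.9 and 61.6 CPM in WT and 353, 367 and 342 CPM in KO (log2 fold change 2.27 ± 0.10, adjusted p = 3.49e-07). Mycn, a growth regulator of DN cells, was at 1.35, 1.01 and 0.878 CPM in WT and 15.3, 20.1 and 26.6 CPM in KO. Kit, the stem cell factor receptor, went from 8.5 ± 0.676 to 26.2 ± 0.61 CPM. Of 20 G1 cyclins, kinases and inhibitors 11 were higher and 2 lower. The summed level of the DN and early progenitor genes was higher in the same libraries, as given above, with 8 of 16 members called higher and 2 lower, and their part in the rise of the cycle genes was not tested. Nucleotide synthesis rose: 20 of 25 synthesis genes were higher and 2 lower. Rrm1, the large subunit of ribonucleotide reductase, went from 106 ± 19.8 to 264 ± 19.4 CPM, and Tk1, the thymidine kinase of S phase, from 15.6 ± 1.97 to 41.6 ± 0.66 CPM. Of 19 p53 targets 3 were higher (15.8%) and 5 lower (26.3%), against 20.9% and 18.8% of all tested genes.

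Genes that make lipids were higher more often than lower. Of 20 genes of cholesterol synthesis 11 were higher and 2 lower. Sqle, which puts the first oxygen into the sterol precursor and sets the pace of the late steps, was at 7.74, 8.61 and 9.18 CPM in WT and 37.8, 32.2 and 35.2 CPM in KO (log2 fold change 2.05 ± 0.11, adjusted p = 7.49e-07). Idi1, an isomerase of the early pathway, went from 16.9 ± 1.96 to 55.2 ± 9.99 CPM. The sterol exporter Abcg1 fell from 263 ± 33.9 to 157 ± 23.7 CPM. Srebf2, the regulator that drives these genes when sterol is short, rose by 0.40 on the log2 scale. The desaturase Fads2 went from 7.28 ± 0.859 to 49.4 ± 2.63 CPM and Acaca, which makes malonyl-CoA for fatty acids, from 28.2 ± 0.987 to 75.5 ± 5.0 CPM. Of 12 genes of fatty acid synthesis 5 were higher and 2 lower. Genes of fatty acid oxidation were also higher, in 6 of 12 cases, among them Acadl, a dehydrogenase of its first step (29.5 ± 2.18 to 76.3 ± 10.2 CPM). Its relative Acadvl was the 1 lower member and went from 92.9 ± 1.55 to 63.8 ± 3.08 CPM. Of 11 one-carbon and serine genes 8 were higher, including the folate enzymes Shmt1 (18.9 ± 2.34 to 39.6 ± 3.31 CPM) and Shmt2 (79.4 ± 5.2 to 137 ± 7.94 CPM). Slc43a1, an amino acid carrier, went from 8.37 ± 0.83 to 63.7 ± 6.48 CPM.

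Of 88 nuclear genes of the respiratory chain 39 were higher and none lower, though the changes were small (median 0.25). Atp5b, a catalytic subunit of ATP synthase, went from 645 ± 41.6 to 875 ± 30.6 CPM, and Ndufb8 of complex I from 38.5 ± 2.0 to 58.7 ± 3.36 CPM. Of 78 mitochondrial ribosomal protein genes 33 were higher and 2 lower (median 0.24). Both counts rest in part on WT replicate 2, without which 23 respiratory and 16 mitochondrial ribosomal genes were higher. None of the 13 protein-coding genes of the mitochondrial genome was called by edgeR in the 6 libraries, or had an unadjusted p under 0.05. CYTB, cytochrome b, stood at 3345, 2971 and 2609.7 CPM in WT and 3202, 2487 and 2112 CPM in KO. With the replicate number as a block 1 of the 13 was lower, CYTB, and 4 were lower without KO replicate 1. Of 20 genes of the citrate cycle 9 were higher and none lower, with Idh3a at a log2 fold change of 0.56. Glycolysis genes went both ways, 5 higher (25%) and 7 lower (35%) of 20, against 20.9% and 18.8% of all tested genes. The glucose carrier Slc2a3 fell from 78.9 ± 3.97 to 34.2 ± 2.11 CPM, and the enzymes Eno1 and Aldoa fell from 799.7 ± 34.5 to 472 ± 42.1 CPM and from 253 ± 3.83 to 173 ± 4.83 CPM. Hk2, a hexokinase, rose from 5.47 ± 0.216 to 12 ± 0.364 CPM. Without WT replicate 2, 3 glycolysis genes were higher.

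Aminoacyl-tRNA synthetases, which charge tRNA, were higher in 12 of 20 cases and lower in none, with Vars at 196 ± 21.1 to 316 ± 19.5 CPM. Proteasome subunits were higher in 20 of 38 and lower in 1, with Psma6 at a log2 fold change of 0.42. Of 20 cytosolic chaperone genes 9 were higher, among them Hspd1 (0.61) and the chaperonin subunit Tcp1 (0.53). Splicing factors were higher in 23 of 51 and lower in 3, a count that fell to 14 without WT replicate 1 and to 12 without WT replicate 2. Translation initiation factors were higher in 21 of 54 and lower in 5, with 13 higher without WT replicate 2. Of 26 ribosome assembly genes 11 were higher and 1 lower, and Ncl, nucleolin, went from 748 ± 26.9 to 1048 ± 29.98 CPM. Genes of the cytosolic ribosome were mostly not called: 3 of 81 were higher and 8 lower, and the median log2 fold change was -0.10. Their lower count depended on the fit, at 32 with the replicate number as a block, 20 without KO replicate 3, 5 without KO replicate 1, 13 with the DESeq2 Wald test and 17 with no low-count filter. Lysosome genes leaned lower: 12 of 32 lysosome and V-ATPase genes were lower and 3 higher. Npc2, which hands cholesterol out of the lysosome, fell from 285 ± 11.8 to 149 ± 1.76 CPM. Tfeb, the regulator of lysosome and autophagy genes, fell from 17.8 ± 1.71 to 7.11 ± 0.984 CPM. The protease Ctsl rose from 25.5 ± 1.37 to 75.9 ± 15.3 CPM. Of 30 autophagy genes 8 were lower (26.7%, against 18.8% of all tested genes) and 2 higher (6.67%, against 20.9%). That higher count was 0 without WT replicate 2, 1 without KO replicate 2 or KO replicate 3, 4 with the DESeq2 Wald test or no low-count filter, and 5 with the block.

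**Figure D2:**
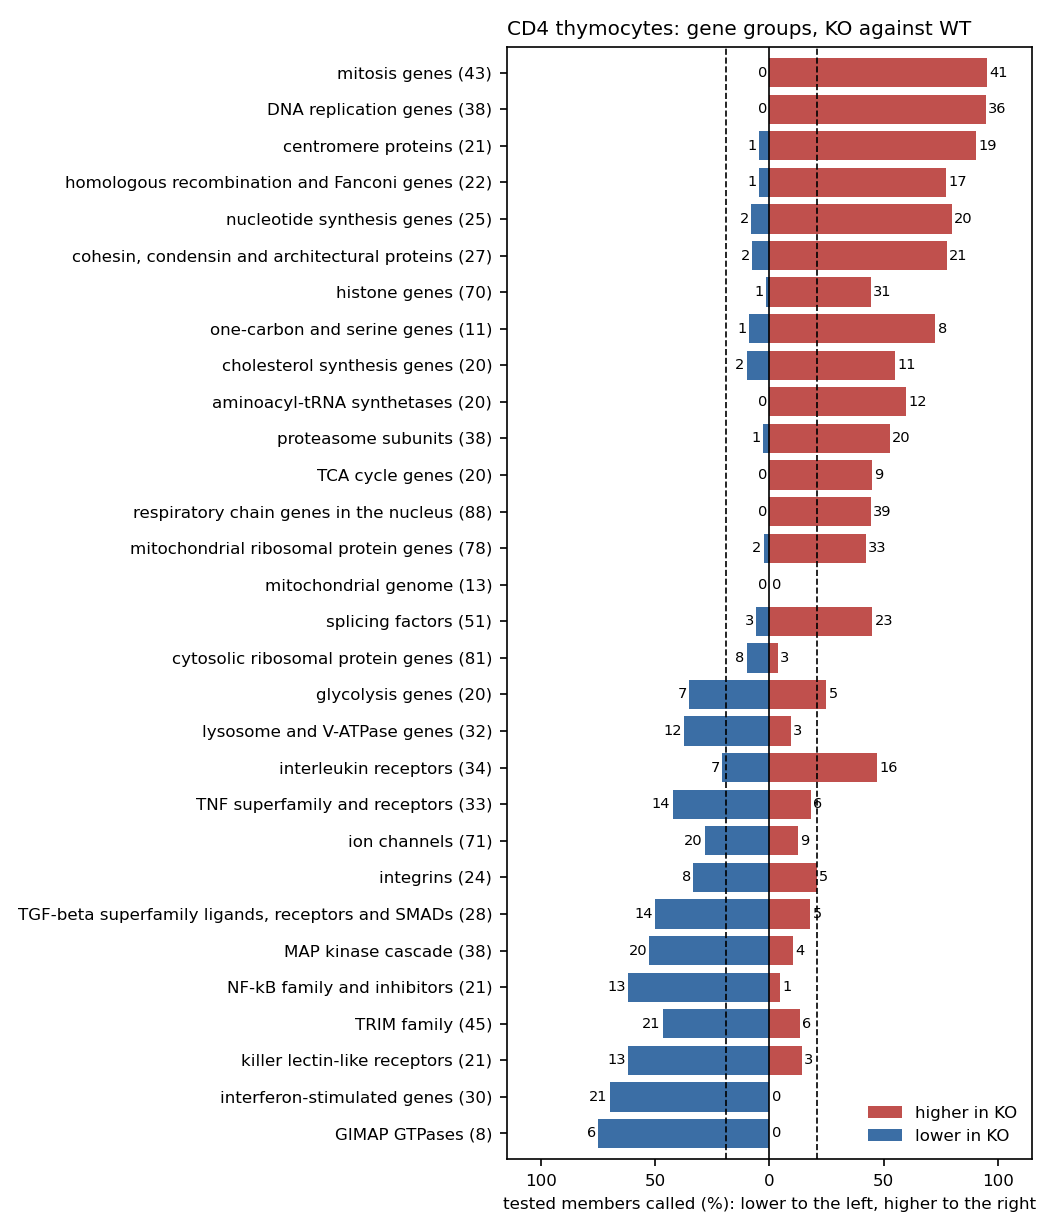
Share of tested members called higher (red, right) or lower (blue, left) in CD4 KO against WT for 30 gene groups, with the number called at each bar's end and the number tested in brackets; the dashed lines are the shares over all tested genes, 20.9% and 18.8%. Of the 30 groups drawn, mitosis, DNA replication and centromere genes reach farthest to the right. GIMAP GTPases and interferon-stimulated genes reach far to the left. Among all gene groups, drawn or not, the share lower was largest for T cell receptor signalling components (90.5%).

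The receptor loci of T cells changed in opposite directions. The table counts each T cell receptor locus as 1 feature, and its single V, J and C segments hold no counts. Tcrg, the gamma chain locus (chr13:19178042-19356476), was at 35, 34.6 and 22.6 CPM in WT and 532, 571 and 502 CPM in KO (log2 fold change 4.12 ± 0.17, adjusted p = 1.56e-06). Tcrb, the beta chain locus (chr6:40891296-41558371), was at 3920.1, 4456 and 5075 CPM in WT and 2209, 2209.8 and 2065 CPM in KO (log2 fold change -1.05 ± 0.10, adjusted p = 2.1e-05). Tcra, the alpha chain locus (chr14:52427967-54224198), was at 901, 1032 and 790.3 CPM in WT and 347, 326 and 222 CPM in KO (log2 fold change -1.6 ± 0.18, adjusted p = 0.000217). All 3 differences leave the groups apart, as do those of 51.9% of all tested genes. The delta locus lies inside the alpha locus and the way reads shared by both were counted is not given in the sources used here. Tcra was named after its values were seen. The summed level of the genes of innate-like T cells, a class that takes in cells with gamma delta receptors, was higher in the same KO libraries, as given above, and their part in the rise of Tcrg was not tested.

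Genes of several signalling pathways fell more often than they rose. Of 21 T cell receptor signalling components 19 were lower and 1 higher, and the median log2 fold change was -0.46. With a library left out 17 to 19 were lower and 0 to 1 higher. Of 21 genes of the NF-kB family and its regulators 13 were lower and 1 higher, and the median log2 fold change was -0.71. Rel, the c-Rel subunit of lymphocytes, was at 117, 118 and 105 CPM in WT and 51.9, 41.5 and 46.2 CPM in KO (log2 fold change -1.28 ± 0.09, adjusted p = 3.82e-06). Relb, the subunit of the alternative pathway, fell from 61.3 ± 2.94 to 27 ± 1.54 CPM. Traf3, which restrains that pathway, fell as well, from 157 ± 9.6 to 74.5 ± 6.41 CPM, and so did Tnip1, an inhibitor, from 154 ± 5.0 to 86.1 ± 4.34 CPM. Of 38 MAP kinase cascade genes 20 were lower and 4 higher (1 higher without WT replicate 1 or WT replicate 2, and 2 without KO replicate 2). Map4k5 went from 26 ± 1.28 to 3.05 ± 0.415 CPM, Map3k3 from 169.6 ± 11.2 to 83 ± 3.67 CPM and Mapk11, a p38 kinase, from 126 ± 7.63 to 49.4 ± 7.32 CPM.

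Inpp4b, a phosphatase that ends PI3K signals, was at 519.7, 568 and 548 CPM in WT and 74, 63.5 and 68.4 CPM in KO (log2 fold change -2.99 ± 0.08, adjusted p = 4.71e-08). Pik3cd, the p110 delta kinase of lymphocytes, went from 758 ± 22.4 to 391 ± 55.8 CPM. The PI3K, AKT and mTOR list held 8 lower and 2 higher genes of 21, and 5 lower without WT replicate 1. Nfatc2 fell from 82.5 ± 5.68 to 33.4 ± 2.07 CPM, Rcan3, an inhibitor of calcineurin, from 112 ± 5.14 to 22.6 ± 2.2 CPM, and the calcium channel Orai1 from 35.8 ± 1.65 to 17.7 ± 0.562 CPM. Their list held 8 lower and 5 higher of 21 genes. Of 28 TGF-beta superfamily genes 14 were lower and 5 higher. Skil, a corepressor that TGF-beta induces and that dampens SMADs, was at 234.03, 250.1 and 264 CPM in WT and 81.1, 75.2 and 83.8 CPM in KO (log2 fold change -1.64 ± 0.07, adjusted p = 3.6e-07). Tgfbr3, the co-receptor betaglycan, went from 96.1 ± 5.22 to 10.7 ± 2.37 CPM, and the ubiquitin ligase Smurf1 from 94.7 ± 1.9 to 49.2 ± 2.56 CPM. The receptor Acvrl1 went from 64.2 ± 20.9 to 4.22 ± 3.5 CPM (adjusted p = 0.0131, 0.0821 with the replicate block and 0.0529 without KO replicate 2). The activin receptor Acvr2b rose from 4.89 ± 0.669 to 18.8 ± 1.1 CPM. Wnt genes were divided, with 9 higher (26.5%) and 11 lower (32.4%) of 34, against 20.9% and 18.8% of all tested genes. The ligand Wnt8b went from 2.08 ± 0.635 to 44.8 ± 7.0 CPM, and the feedback inhibitors Axin2 from 56 ± 1.09 to 92.1 ± 0.989 CPM and Nkd1 from 0.334 ± 0.0422 to 6.15 ± 2.33 CPM. The lower count of that list was 6 without WT replicate 1, WT replicate 2 or KO replicate 1, and 5 without KO replicate 2.

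Genes of the interferon response split by class. Of 30 interferon-stimulated genes 21 were lower and none higher, and the median log2 fold change was -0.71. Ifih1, a sensor of viral RNA, was at 58.1, 63.2 and 69.9 CPM in WT and 31.2, 38.9 and 26.2 CPM in KO (log2 fold change -0.99 ± 0.14, adjusted p = 0.000474). Ddx58, the sensor RIG-I, went from 192 ± 16.1 to 100.9 ± 13.5 CPM, and Ifi27l2a from 96.8 ± 4.86 to 39.2 ± 4.2 CPM. In 1 model over all 12 libraries 11 of the 30 were lower. The interferon-inducible GTPases went the other way, 9 higher and 1 lower of 17. Gvin1 rose from 149 ± 20.4 to 490 ± 48.4 CPM and Gbp5 from 23.6 ± 0.771 to 37.5 ± 2.53 CPM. In the model over 12 libraries 4 were higher. Some of these GTPases are near-identical copies of each other, and reads between copies may have been split or lost. The GIMAP family, small GTPases of lymphocytes encoded in 1 cluster, had 6 of 8 members lower and none higher. Gimap4 was at 533, 624 and 572 CPM in WT and 228, 212 and 191 CPM in KO (log2 fold change -1.45 ± 0.09, adjusted p = 1.75e-06), and Gimap6 went from 512 ± 25.9 to 256 ± 6.47 CPM. TRIM ubiquitin ligases, many of which restrain viruses, had 21 of 45 lower and 6 higher. Trim26 fell from 149.8 ± 10.4 to 79.4 ± 8.38 CPM, and Trim59 rose from 61.8 ± 5.73 to 133 ± 20.9 CPM. Of 17 genes of MHC class I and peptide loading 12 were lower and 0 higher, and the median log2 fold change was -0.46. With the replicate number as a block 2 were higher.

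On the cell surface the lean differed between families, and several shares lay near the background of 20.9% higher and 18.8% lower. Interleukin receptors rose more often than they fell, 16 against 7 of 34. Il10ra went from 27 ± 2.05 to 87.7 ± 4.01 CPM and Il12rb2 from 16.8 ± 0.259 to 56.8 ± 4.75 CPM. Il6ra fell from 83.3 ± 13 to 15.3 ± 0.915 CPM and Il4ra from 231 ± 14.7 to 74.8 ± 6.95 CPM. Members of the TNF superfamily and their receptors fell more often, 14 against 6 of 33. The lymphotoxins Lta (22.3 ± 3.15 to 6.3 ± 1.14 CPM) and Ltb (269 ± 9.46 to 138 ± 5.29 CPM) and Tnf itself (25.6 ± 1.64 to 10.2 ± 1.73 CPM) were lower. Tnfrsf8, the receptor CD30, was higher (4.05 ± 0.517 to 19.3 ± 2.12 CPM). Killer lectin-like receptors, proteins best known from natural killer cells, were lower in 13 of 21 tested members and higher in 3, at low levels. The 29 members listed summed to 50.3 to 110 CPM in WT and 21.6 to 26.4 CPM in KO. A member near 0 in KO could pass the low-count filter only through WT, so the direction of such calls carries little weight. Klrb1c, the marker NK1.1, went from 13.5 ± 5.51 to 1.15 ± 0.363 CPM and Klra3, a Ly49 receptor, from 2.57 ± 0.758 to 0.149 ± 0.0495 CPM. The Ly49 genes are close copies and their single values are uncertain. SLAM and costimulatory receptors had 10 lower and 4 higher of 15. Slamf6, a receptor that T cells use on each other, was among the higher (63.8 ± 5.68 to 156 ± 13.6 CPM), and the adhesion receptor Cd2 went from 516 ± 10.7 to 193 ± 35.2 CPM. Of 51 orphan and adhesion G protein-coupled receptors 15 were lower (29.4%) and 9 higher (17.6%). Gpr174, a receptor of lymphocytes, went from 133 ± 4.6 to 44.5 ± 1.14 CPM. Receptors for lysophospholipids, prostaglandins and purines were higher in 7 (29.2%) and lower in 4 (16.7%) of 24. Adora2a, the adenosine receptor that restrains T cells, rose from 18 ± 2.32 to 45.3 ± 2.13 CPM. Integrins had 8 lower (33.3%) and 5 higher (20.8%) of 24. Itgb2, the beta chain of LFA-1, went from 964 ± 26.2 to 365 ± 37.9 CPM and Itgb8 from 1.45 ± 0.365 to 10.2 ± 0.951 CPM.

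The sialyltransferases St8sia6 (52.2 ± 6.99 to 5.0 ± 0.541 CPM) and St3gal2 (80.1 ± 2.35 to 26.8 ± 2.34 CPM) and the mucin-type transferase Galnt6 (533 ± 10.9 to 185 ± 30.3 CPM) fell. Of 69 glycosyl- and sulfotransferases 15 were higher (21.7%) and 21 lower (30.4%), against 20.9% and 18.8% of all tested genes. Ion channel genes fell more often than they rose, 20 against 9 of 71. Kcna3, the potassium channel of activated T cells, rose from 52.7 ± 3.4 to 119 ± 2.31 CPM, and Kcnh3 fell from 30.1 ± 2.97 to 7.58 ± 1.16 CPM. Among matrix genes the collagen Col27a1 went from 4.5 ± 1.35 to 148 ± 21.9 CPM, the proteoglycan Sdc4 from 3.69 ± 0.421 to 27.9 ± 7.39 CPM and its relative Sdc3 from 42.1 ± 0.672 to 13.5 ± 3.71 CPM. Gzma, the granule protease granzyme A, was at 6.77, 4.96 and 10.6 CPM in WT and 114.6, 131 and 153 CPM in KO (log2 fold change 4.2 ± 0.29, adjusted p = 9.76e-05). Ctsw, a cathepsin of killer cells, fell from 139.9 ± 7.08 to 58 ± 6.19 CPM. Gzma belongs to the list of CD8 and cytotoxic cell genes, whose sums are given above, so its own rise is part of the rise in that sum. Of the 19 members of that list 4 were higher and 6 lower. The part of such cells in the rise of Gzma was not tested. The pore protein Prf1 (0.19) and granzyme B, Gzmb (-0.047), did not pass.

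**Figure D3:**
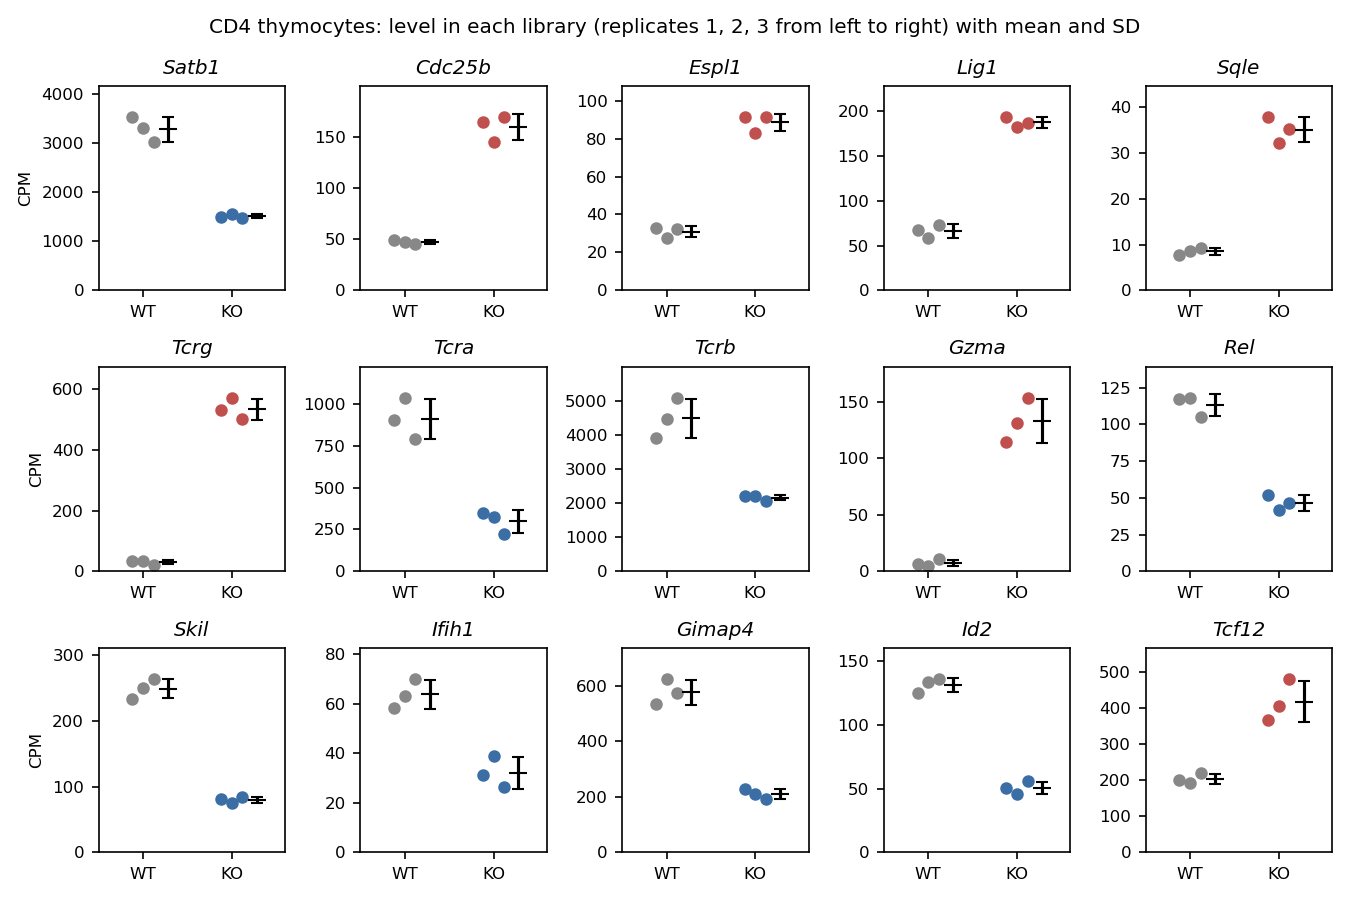
Level in CPM of 15 genes in each of the 3 WT and 3 KO libraries of CD4 cells (points, replicates 1 to 3 from left to right; bars, mean and SD; each axis starts at 0). In every panel the KO points lie clear of the WT points, as they do for 51.9% of all tested genes.

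Transcription factors that set the lineage and state of T cells moved in both directions. The E proteins, which hold thymocytes on the T cell path, and their ID antagonists had 6 higher and 1 lower of 10. Tcf12, the E protein HEB, was at 201, 192 and 220.3 CPM in WT and 367.7, 408 and 481 CPM in KO (log2 fold change 1.04 ± 0.10, adjusted p = 2.84e-05). Id3 rose from 84.3 ± 2.78 to 179 ± 30.4 CPM, while Id2 was at 125, 134 and 136 CPM in WT and 50.4, 45.8 and 55.7 CPM in KO (log2 fold change -1.38 ± 0.08, adjusted p = 1.47e-06). Bach2, which keeps lymphocytes naive, fell from 223 ± 26 to 42.1 ± 11.2 CPM, and Prdm1, a driver of effector fate, rose from 5.15 ± 0.31 to 14.9 ± 3.65 CPM. Maf, which drives cytokine genes in helper cells, rose from 15.5 ± 2.55 to 168 ± 18.6 CPM. Myb rose from 128 ± 9.19 to 426 ± 33 CPM, as did its relatives Mybl1 (2.39 ± 0.376 to 9.0 ± 1.67 CPM) and Mybl2 (19.6 ± 4.79 to 64.2 ± 2.18 CPM). In the Ikaros family, Ikzf2 (125 ± 19.4 to 375 ± 18 CPM) and Ikzf3 (359 ± 11.2 to 655 ± 50.1 CPM) rose and Ikzf1 (1133 ± 78.6 to 667 ± 37.7 CPM) and Ikzf4 (47 ± 6.32 to 17.7 ± 2.44 CPM) fell. Maf is also a member of the innate-like list and Ikzf2 of the regulatory T cell list given above. Their own rises are part of the rises in the sums of those lists. The part of such cells in the rise of Maf and Ikzf2 was not tested. Forkhead factors had 7 lower and 3 higher of 17. Foxp1, a factor of quiescence, fell from 299.8 ± 21.3 to 180.3 ± 18.2 CPM, and Foxm1, a driver of mitosis, rose from 41.1 ± 4.24 to 95.9 ± 10.5 CPM. ETS factors had 6 lower and 1 higher of 17. The higher count was 0 without WT replicate 1 or WT replicate 2, 2 without KO replicate 3 and 4 with the replicate number as a block. The large family of ZFP zinc finger genes gave 52 higher and 60 lower of 346, both below the background shares, and 37 lower without WT replicate 2.

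Chromatin enzymes also changed in both directions. Ezh2, the methyltransferase of dividing cells, rose from 119 ± 6.04 to 250.2 ± 21.3 CPM, and Ezh1, its counterpart of resting cells, fell from 91.6 ± 3.16 to 61 ± 2.83 CPM. Over 20 polycomb genes 4 were higher and 8 lower. Of 9 DNA methylation genes 4 were higher and 4 lower. Uhrf1 and Dnmt1, which copy methylation to new strands, rose from 104 ± 16.1 to 297 ± 14.4 CPM and from 307 ± 13.1 to 513 ± 34.7 CPM. The de novo enzyme Dnmt3a fell from 318 ± 28.3 to 208 ± 18.6 CPM and the demethylase Tet1 from 85.6 ± 7.27 to 48.2 ± 1.1 CPM. Lysine methylases and demethylases leaned lower, 14 against 4 of 40, with Kdm5b from 221 ± 9.37 to 127 ± 5.44 CPM. The lower count was 9 without WT replicate 1, 8 without WT replicate 2 and 9 without KO replicate 2. Among remodellers Chd7 fell from 104 ± 5.73 to 27 ± 3.17 CPM and Smarca2 from 243 ± 8.79 to 126 ± 12 CPM, and Smarcc1 rose from 156 ± 6.99 to 241 ± 9.98 CPM. The list gave 9 higher (25.7%) and 10 lower (28.6%) of 35, against 20.9% and 18.8% of all tested genes. Hdac9 rose from 2.32 ± 0.379 to 16 ± 1.35 CPM and Hdac5 fell from 125 ± 5.19 to 49.8 ± 7.11 CPM.

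Called genes that are neighbours on a chromosome moved the same way more often than the shares alone give. Of 2371 pairs of adjacent protein-coding genes that were both called, did not overlap and did not share the first 3 letters of their symbol, 1458 (61.5%) moved in the same direction, where the shares of higher and lower calls alone give 50.1%. Over all adjacent tested genes it was 1878 of 2778 pairs (67.6%), and the narrower pairing was chosen after seeing the data. Among runs of at least 5 adjacent coding genes called in 1 direction, 1 of 6 genes on chromosome 9 spans positions 110857964 to 110984066 of mm10 and holds Tmie, Als2cl and 4 others, all lower. Tmie, a membrane protein of hearing cells, went from 60.1 ± 1.44 to 1.85 ± 1.44 CPM and Als2cl from 669.9 ± 56.3 to 30.4 ± 19.8 CPM. Another, on chromosome 3, runs from 89268246 to 89393673 over 6 lower genes and ends in Zbtb7b, the CD4 lineage factor ThPOK (388 ± 29 to 31.7 ± 10.9 CPM). A further run, of 5 higher genes on chromosome 13, holds the granzymes Gzma and Gzmk (0.474 ± 0.392 to 2.54 ± 1.2 CPM). One of 5 higher genes on chromosome 19 holds the desaturases Fads3, Fads2 and Fads1 and the flap endonuclease Fen1, log2 fold changes 1.07, 2.76, 1.07 and 0.85 (Fads3 at an adjusted p of 0.0468, and 0.0808 to 0.161 without WT replicate 2, WT replicate 3, KO replicate 1 or KO replicate 2). On chromosome 14 a run of 6 lower genes includes the receptors Gpr18 (37.3 ± 1.71 to 8.63 ± 2.01 CPM) and Gpr183 (39 ± 5.24 to 10.5 ± 2.48 CPM). These runs and their genes were picked after their values were seen. Neighbours share sequence, open chromatin and, where the counting ignored strand, reads that run past a gene's end, and their parts were not tested.

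In DP cells of the same knockout 2811 of 16776 genes were higher (16.8%) and 2368 lower (14.1%). In a model of all 12 libraries the effect in CD4 minus that in DP was above 0, at an adjusted p under 0.05 here and in the counts that follow, for 2634 of 18431 genes (14.3%) and below 0 for 2454 (13.3%). In DP KO 10 mitosis genes were lower, and 42 of 43 had a difference of effects (CD4 minus DP) above 0. Of the replication genes 1 was higher and 3 lower in DP, and 36 of 38 had a difference above 0. Of the 13 DP stage genes 1 was higher and 10 lower in DP KO, and 10 had a difference above 0. For Cdc25b the difference of effects was 1.42 (adjusted p = 2.65e-05) and for Lig1 1.55 (adjusted p = 2.64e-06).

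Cytosolic ribosomal protein genes showed the reverse: 73 of 81 were higher in DP KO (median log2 fold change 0.39), and 63 had a difference of effects below 0, Rplp1 among them (-0.98, adjusted p = 8.27e-06). Of the interferon-stimulated genes 13 were higher and 1 lower in DP, and 19 had a difference of effects below 0; for Ifih1 the difference was -2.15 (adjusted p = 0.000437). Of the GIMAP genes 2 were higher in DP KO, and 6 of 8 had a difference of effects below 0, with Gimap4 at -2.45 (adjusted p = 0.000439). TGF-beta superfamily genes were higher in 10 and lower in 3 in DP, and the difference of effects was below 0 for 13 and above 0 for 1. Skil differed by -1.39 (adjusted p = 5.63e-06), with a log2 fold change of -0.24 in DP. Aminoacyl-tRNA synthetases were higher in 12 of 20 in CD4 and 11 of 20 in DP KO. Tcrb differed by -1.88 (adjusted p = 1.25e-06), with a log2 fold change of 0.83 in DP. Tcrg differed by -1.54 (adjusted p = 0.00022), with a log2 fold change of 5.67 in DP.

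**Figure D4:**
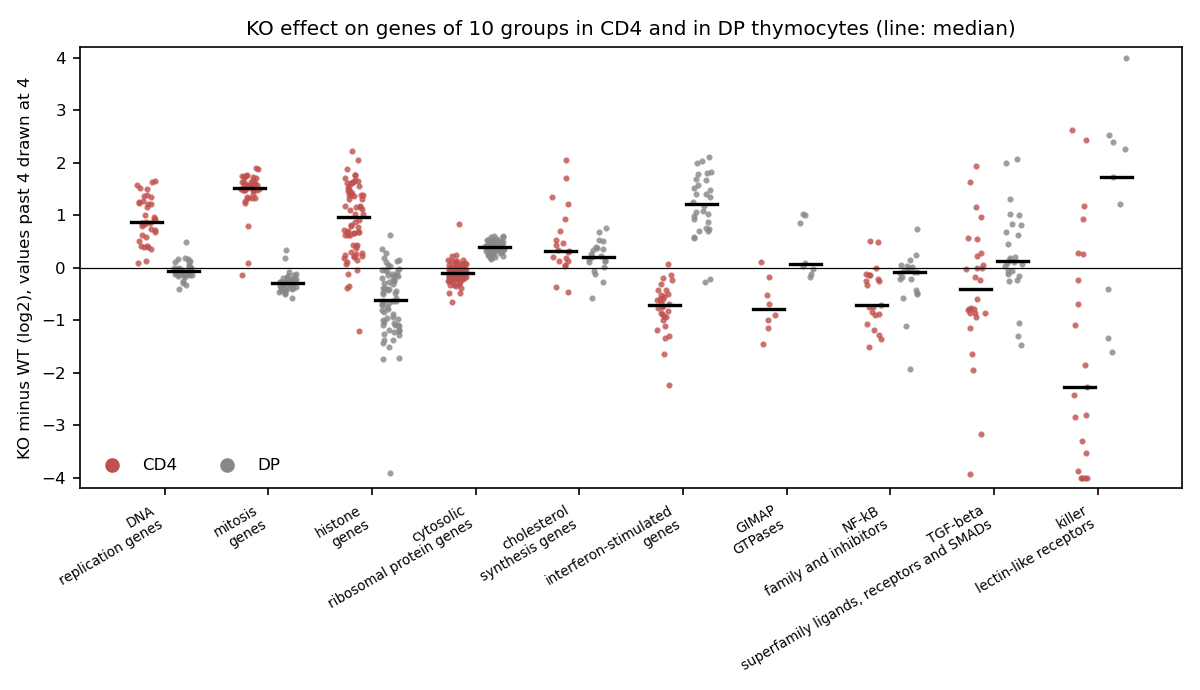
KO minus WT on the log2 scale for the genes of 10 groups in CD4 (red) and DP (grey) thymocytes; each point is 1 gene tested in CD4, the black line is the median, and values past 4 in size are drawn at 4. The medians of replication, mitosis and histone genes lie above 0 in CD4 and near or below it in DP, and those of ribosomal protein and interferon-stimulated genes lie above 0 in DP and below it in CD4.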

How the data were processed

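Gene counts of 12 libraries were taken as deposited by the authors, as whole-number counts per gene with no normalization, on 49997 genes. Per the submitters' processing notes the tools were Subread 1.0.1, DESeq2 and R 4.1.5, and the build was mm10; their settings, and whether strand was used, are not stated there. CPM were computed from the counts with TMM scaling. Genes were filtered with filterByExpr and tested with edgeR 4.0.16 (quasi-likelihood, robust, Benjamini-Hochberg adjusted p under 0.05, R 4.3.3) on the 6 CD4 libraries, and on all 12 for the difference between cell types. Scripts were tested on simulated data. Alternatives were DESeq2 1.42.0, limma-voom (limma 3.58.1), DESeq2 size factors, 2 other count filters, 1 model over 12 libraries, a replicate block and each library left out. Python 3.11.15 and matplotlib 3.10.9 were used for summaries and figures.

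The gene lists, the members and the tests were chosen with earlier results of these data known, and 3 of the 106 lists (histones, the mitochondrial genome and the TGF-beta superfamily) were corrected or renamed after the table was seen. The genes named are Satb1 and, from each list, at most 4 tested ones, taken by lowest adjusted p. To these come, per direction, 12 called genes by difference in mean CPM and 12 by log2 fold change; the latter needed an average log2 CPM of 4 or more and 1 sign in the 3 pairs. Predicted genes and pseudogenes were left out, members that did not pass may be named with their values, and other genes were named after their values were seen. The sequences are of up to 3 promoters of named mitosis genes with a CHR.

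The main fits held no pairing of libraries. The labels give the replicate number as the batch number. Same-numbered libraries were therefore taken as pairs in the block fit and in the choice of genes by log2 fold change. Deviations of same-numbered libraries from the group means correlated at 0.161, 0.274 and 0.447 over 11141 genes for replicates 1, 2 and 3. Over the unmatched pairs the correlation was -0.356 to 0.25, with WT replicate 2 and KO replicate 1 at the top, above the value for replicate 1.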

Additional observations from a re-analysis of the deposited data

Results flagged for a closer look

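The effect of the knockout differed between CD4 and DP thymocytes by a test of the difference itself, the interaction term of edgeR's quasi-likelihood model over 12 libraries, with the log2 effect in CD4 minus that in DP above 0 for 2634 genes and below 0 for 2454. Among the genes described, this difference was 1.42 for Cdc25b and 1.55 for Lig1. It was -2.45 for Gimap4, -2.15 for Ifih1, -0.98 for Rplp1 and -1.39 for Skil. For the receptor loci it was -1.88 for Tcrb and -1.54 for Tcrg. All 8 passed the threshold in each alternative run on the interaction.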

How the results depend on the processing

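A minimum change of 2-fold left 1424 higher and 968 lower calls in CD4. Under the other alternatives all 4 counts of calls (higher and lower in CD4, and effects above and below those in DP) stayed within 1.5 times the value given. With each library left out in turn, 2921 to 3567 calls were higher and 2620 to 3157 lower, and 2151 to 2616 effects were above and 2066 to 2848 below those in DP. In the paired fit, with the replicate number as a block, 4061 genes were higher and 3704 lower, and 3110 effects were above and 2922 below; beyond the values given beside the results above, the block changed no call of a gene named here except CYTB (-0.21, adjusted p = 0.0135). Of the 185 tested genes named, 175 were called, 169 of them under every alternative run. Those that lost the call under at least 1 were Acvrl1, Cd22, Fads3, Irf8, Kif21b and Kif5b, and no called gene changed direction. Of the genes not called, Foxp3 and Gzmb did: Foxp3 ranged from -0.12 (without KO replicate 3) to 0.32 on the log2 scale with a library left out, and Gzmb ranged from -0.31 to 0.26 on the log2 scale with a library left out, and stood at 0.0798 with limma-voom. The cause was not tested. DESeq2 size factors put the median log2 fold change of all genes at -0.0071. Over all alternatives, counts of lower genes of 3 or fewer also moved by over 1.5 times: 0 to 2 histone, 0 to 1 proteasome and 1 to 5 splicing genes, and 1 to 2 in the DN and early progenitor, G1, nucleotide synthesis, cholesterol synthesis, fatty acid oxidation, ribosome assembly, cohesin and condensin and interferon-inducible GTPase groups. Higher p53 targets numbered 2 to 5. Counts near 0 limit the killer receptors and other genes under 1 CPM.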
